A study of Mus musculus with 4 samples.

Results

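The 78 genes described here carry mouse symbols that begin with Mrpl or Mrps followed by a number, the names given to proteins of the mitochondrial ribosome. Membership was set by symbol after the deposited transcript rows had been summed per gene. Earlier results of these data were known when the members were chosen. They are 78 of 24343 genes in the table. RNA-seq was done on group 3 innate lymphoid cells (ILC3s), lymphocytes of barrier tissues that lack antigen receptors, sorted as lineage-negative, CD127+ and IL23R-GFP+. All cells came from IL23R-GFP/WT mice, which carry 1 copy of the reporter, so both groups share that genotype. One group of 2 libraries came from cells stimulated with TL1A, a cytokine of the TNF superfamily that binds the receptor DR3, and the other group of 2 libraries from cells kept in medium. The dose of TL1A, the length of the stimulation and the age of the mice were not stated in the labels.

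Mitochondria translate the few proteins encoded by their own DNA, all of them membrane subunits of the respiratory chain and the ATP synthase, on a ribosome of their own. Its RNA comes from mitochondrial DNA, but every one of its proteins is encoded in the nucleus, made in the cytosol and imported. The mitoribosome has a large subunit (Mrpl proteins and a few Mrps names), where peptide bonds form, and a small subunit (Mrps proteins), which decodes the messenger RNA, and it holds relatives of bacterial ribosomal proteins as well as proteins that were added in mitochondria.

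Of the 78 genes, 49 have Mrpl and 29 have Mrps symbols, and they took up 96 transcript rows. The names do not follow the subunits fully: Mrps18a and Mrps30 encode proteins of the large subunit, and Mrps36 is known as a subunit of the 2-oxoglutarate dehydrogenase complex. The filter on low counts left 72 for testing, 49 of the large and 23 of the small subunit. The 6 that were not tested all have several transcript rows, and their summed reads reached at most 12 in any library. They were Mrpl48, Mrpl55, Mrps10, Mrps2, Mrps23 and Mrps36, of which Mrps2 had 0 and 0 reads with TL1A, against 1 and 0 reads in medium. Since reads in exons shared by several transcripts of a gene were not assigned, these low counts say little about the level of the genes.

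Promoter sequences are shown first because much of the background knowledge on these genes concerns 3 nuclear factors, NRF1, the ETS factor GABP and YY1, that bind near the start of many nuclear genes for mitochondrial proteins. RefSeq promoter windows of GRCm38.p6, which run from 250 bases before to 50 bases after the start, were found for 69 of the 78 genes, and the first start listed was used. No window was found for Mrpl38, the gene with the largest rise with TL1A, or for Mrps28, which also rose. Mrpl17 (chr7:105811038-105811337 on the minus strand) and Mrps18b (chr17:35916391-35916690 on the minus strand) are printed as genes that rose with TL1A and hold both NRF1 and ETS letters, and Mrpl10 (chr11:97041332-97041631 on the plus strand) as a gene that fell and holds NRF1 letters. Mrpl45 (chr11:97315466-97315765 on the plus strand) and Mrps6 (chr16:92058086-92058385 on the plus strand) are printed because they are among the 3 genes that rose by more than 2-fold. Each is written 5′ to 3′ on the strand of the gene, with the NRF1 and ETS letters in capitals.
Mrpl17: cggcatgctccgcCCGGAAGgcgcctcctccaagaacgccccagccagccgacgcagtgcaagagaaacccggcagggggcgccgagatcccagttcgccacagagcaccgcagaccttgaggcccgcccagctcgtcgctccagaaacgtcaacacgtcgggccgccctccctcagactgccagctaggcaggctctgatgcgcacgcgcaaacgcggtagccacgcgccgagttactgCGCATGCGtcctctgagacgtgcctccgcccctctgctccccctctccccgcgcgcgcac
Mrps18b: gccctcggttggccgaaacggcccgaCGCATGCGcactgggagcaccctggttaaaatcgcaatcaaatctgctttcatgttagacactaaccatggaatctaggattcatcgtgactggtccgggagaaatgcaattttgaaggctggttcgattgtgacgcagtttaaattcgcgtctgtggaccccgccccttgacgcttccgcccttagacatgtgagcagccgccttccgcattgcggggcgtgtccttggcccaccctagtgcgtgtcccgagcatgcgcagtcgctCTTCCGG
Mrpl10: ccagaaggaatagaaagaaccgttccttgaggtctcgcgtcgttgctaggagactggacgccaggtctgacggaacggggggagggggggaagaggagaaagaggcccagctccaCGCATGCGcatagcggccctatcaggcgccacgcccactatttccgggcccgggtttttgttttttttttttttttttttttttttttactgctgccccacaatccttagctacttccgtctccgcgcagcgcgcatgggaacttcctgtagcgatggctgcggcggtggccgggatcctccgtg
Mrpl45: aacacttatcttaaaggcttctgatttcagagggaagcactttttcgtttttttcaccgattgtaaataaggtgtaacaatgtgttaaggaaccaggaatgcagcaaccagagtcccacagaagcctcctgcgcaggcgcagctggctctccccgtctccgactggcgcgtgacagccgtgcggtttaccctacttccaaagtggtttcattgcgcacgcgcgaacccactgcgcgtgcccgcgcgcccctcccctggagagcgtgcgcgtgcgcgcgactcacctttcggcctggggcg
Mrps6: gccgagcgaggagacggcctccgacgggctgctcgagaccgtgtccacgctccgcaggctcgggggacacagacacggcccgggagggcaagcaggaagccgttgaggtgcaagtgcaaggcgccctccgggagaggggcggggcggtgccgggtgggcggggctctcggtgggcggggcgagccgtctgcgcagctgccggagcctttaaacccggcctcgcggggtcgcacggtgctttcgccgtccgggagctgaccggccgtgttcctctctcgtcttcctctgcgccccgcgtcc

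The letters searched, on both strands, were CGCATGCG for NRF1, CCGGAAG for ETS factors, AAGATGGC for YY1, CACGTG for E-boxes, CCAAT for the CCAAT box, and the NF-kB motif by its name. None of these letter strings contains another. The NRF1 letters stood in 7 of the 69 promoters (10.1%), against 1.9% of all 27025 promoters in the table. ETS letters stood in 25 (36.2%, against 9.1% of all promoters) and YY1 letters in 12 (17.4%, against 2.9%). At least 1 of these 3 was present in 37 promoters (53.6%). E-box letters (7.2%, against 7.2%), CCAAT letters (39.1%, against 37.9%) and NF-kB letters (2.9%, against 4.3%) stood at shares close to those of all promoters. The mitoribosome windows had a median GC content of 58.3%, against 52.7% for all windows, and no matching for base composition was made.

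Split by response to TL1A, ETS letters stood in 7 of the 15 promoters found for the 17 genes that rose, which leave out Mrpl38 and Mrps28. They stood in 1 of the 4 of genes that fell (Mrpl57) and in 16 of the 44 of genes that did not pass. NRF1 letters stood in 3 (Mrpl17, Mrpl32 and Mrps18b), 1 (Mrpl10) and 3 promoters of these groups, and YY1 letters in 1 (Mrpl32), 0 and 11. NF-kB letters stood in 1 of the 15 windows of genes that rose (Mrpl14), 0 of the 4 of genes that fell and 1 of the 44 of genes that did not pass (Mrpl28). The windows of Mrpl45 and Mrps6 held none of the letters searched. These are matches of letters in a fixed window, and they show neither binding nor the lack of it.

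Across the libraries, 11849977 and 12605164 reads were assigned to transcripts with TL1A, against 11495636 and 12222552 in medium. Mitoribosome genes took 67966 and 72198 of these reads with TL1A, against 65791 and 71289 in medium, which is 0.574% and 0.573% of assigned reads with TL1A, against 0.572% and 0.583% in medium. The shares overlapped. Levels are given below as CPM (assigned reads scaled to a common library total) after TMM scaling, whose factors were 0.908 and 0.921 with TL1A, against 1.09 and 1.09 in medium. On that scale the summed level was 6320 and 6220 CPM with TL1A, against 5230 and 5330 CPM in medium, and without Mrpl38 it was 6040 and 5950 CPM with TL1A, against 5220 and 5320 CPM in medium. The summed transcripts thus held overlapping shares of assigned reads, and their summed level differed between the groups after TMM scaling. In bulk RNA, a change in the number of cells of a type and a change of RNA per cell cannot be told apart. ILC3 markers summed to 6780 and 6580 CPM with TL1A, against 7430 and 7810 CPM in medium, and 0 of 10 were at 0 reads in all libraries. The other marker lists also moved with the groups: T cell markers summed to 211 and 206 CPM with TL1A, against 497 and 513 CPM in medium (1 of 8 at 0), and myeloid markers to 746 and 730 CPM, against 1650 and 1820 CPM (2 of 10 at 0). B cell markers summed to 849 and 777 CPM with TL1A, against 154 and 167 CPM in medium, with Ms4a1 and Pax5 at 0, and epithelial and stromal markers to 5.3 and 3.88 CPM, against 15 and 7.86 CPM (3 of 9 at 0). The T cell sum was mostly Cd4 (106 and 84.1 CPM with TL1A, against 356 and 388 CPM in medium) and Lat (99.8 and 116 CPM, against 138 and 116 CPM), while Cd3e and Cd3g were below 4 CPM in every library. The myeloid sum was mostly Fcer1g (702 and 678 CPM with TL1A, against 1560 and 1720 CPM in medium), which fell. Cd14 (4.74 and 5.69 CPM with TL1A, against 45.7 and 49.2 CPM in medium, edgeR adjusted p = 8.55e-06) also fell. So did Mpeg1 (4 and 1.21 CPM, against 7.32 and 12 CPM, edgeR adjusted p = 0.0192). Adgre1 rose (13.3 and 19.0 CPM, against 10.3 and 6.88 CPM, edgeR adjusted p = 0.0312), and the other 3 myeloid markers tested did not pass. The B cell sum was mostly Blk (735 and 679 CPM with TL1A, against 117 and 119 CPM in medium). The part of these lists in the results below was not tested.

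With TL1A, 17 of the 72 tested mitoribosome genes rose and 4 fell, whereas scaling by library totals alone turned the balance to 8 higher and 15 lower (edgeR quasi-likelihood test, adjusted p under 0.05 over all genes tested). All genes moved alike under that scaling, to 1311 higher and 3472 lower, against 2027 and 2141 with TMM. With TMM, the share that rose, 23.6%, was near that of all genes tested, 20.6%, and the share that fell, 5.56%, was below that of all genes, 21.7%. Most of the family changed little: 61 of 72 genes lay within 0.5 of 0 on the log2 scale, and the median size of the log2 fold change was 0.24, against 0.44 for all genes. The median log2 fold change itself was 0.17, against −0.03 for all genes, and 51 of the 72 values (70.8%) were above 0, against 48.1% of all genes. With library totals alone, the median of all genes moved to −0.29 and that of the mitoribosome genes to −0.08, a shift that a change of scaling gives every gene.

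Fewer genes passed when a library was left out. In those fits 1 group has a single library, which is assumed to vary like the other group, and all genes also gave fewer calls. The median log2 fold change of the mitoribosome genes was 0.179 without TL1A replicate 1, against −0.041 for all genes. It was 0.155 without TL1A replicate 2, against −0.04. Without medium replicate 1 it was 0.138, against −0.006, and without medium replicate 2 it was 0.175, against −0.018. With all libraries, 29 of the 72 genes had an unadjusted p under 0.05 in the edgeR test. The count at an unadjusted p under 0.05 was made for mitoribosome genes only, so 29 of 72 has no share of all genes beside it. At the adjusted threshold with all libraries, 20.6% of all genes rose and 21.7% fell (edgeR). Whether the libraries stem from different mice or cultures is not labelled. The p-values therefore reflect the spread among these 4 libraries alone, and that spread may be technical.

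**Figure D1:**
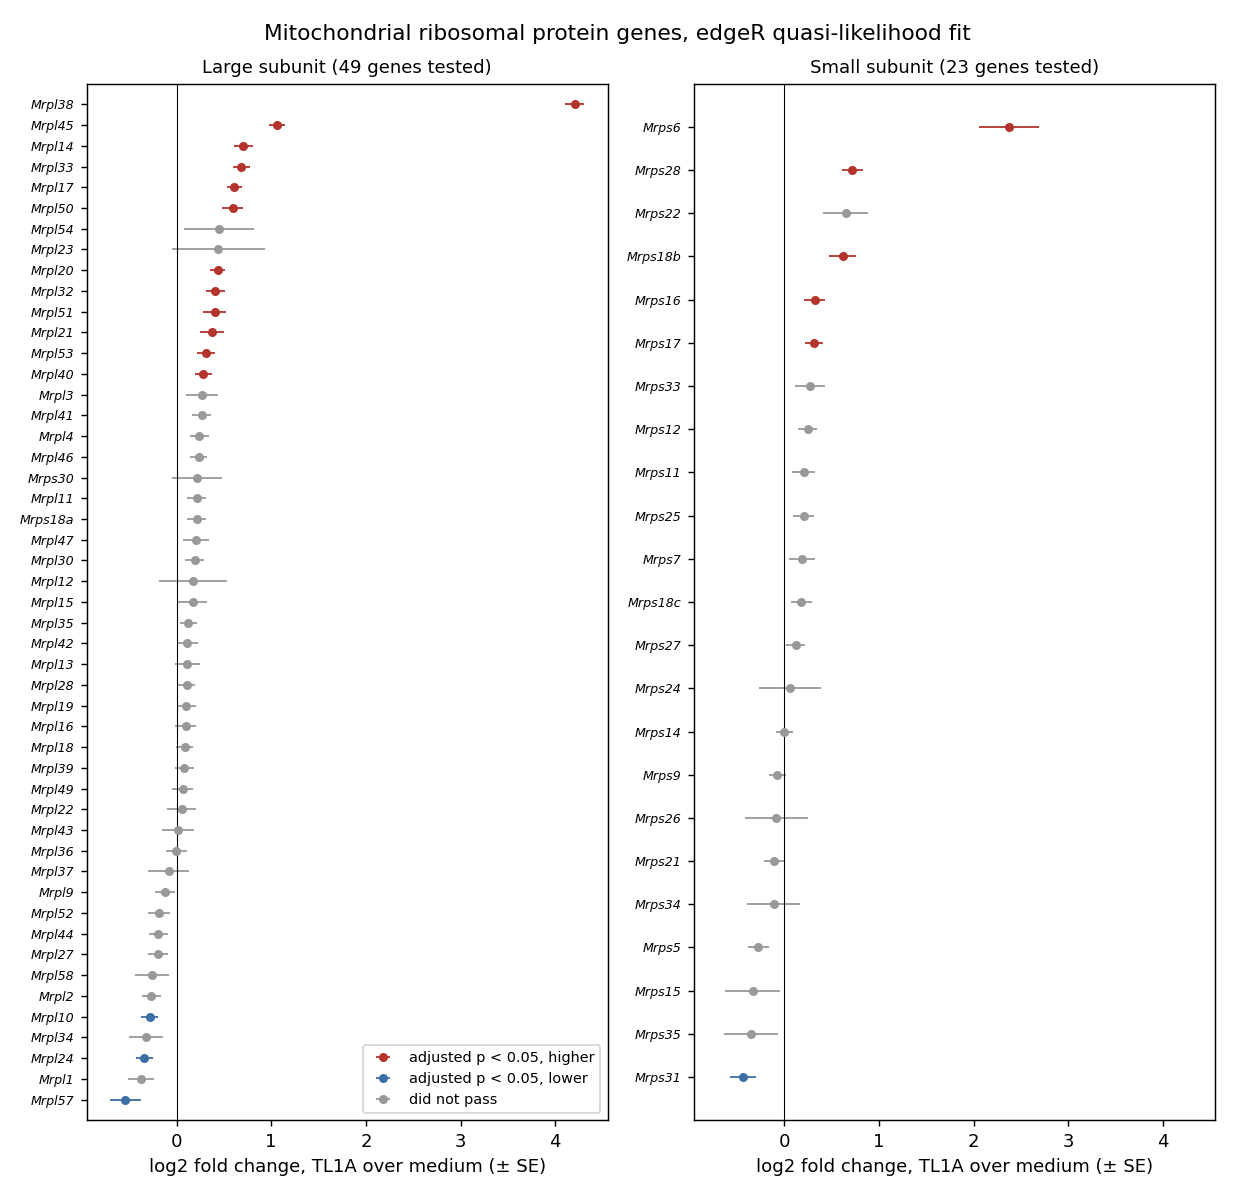
Log2 fold changes, TL1A over medium, with standard errors, for the 49 large-subunit and 23 small-subunit genes tested, sorted within each panel. Red points rose and blue points fell (adjusted p under 0.05, TMM scaling; 17 and 4 genes, but 8 and 15 with library totals alone), and Mrpl38 and Mrps6 lie far to the right of the other genes.

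The large and the small subunit gave like counts. Among large-subunit genes 12 rose, 3 fell and 34 did not pass (median log2 fold change 0.17), and among small-subunit genes 5 rose, 1 fell and 17 did not pass (median 0.18). Relatives of bacterial ribosomal proteins (10 rose, 2 fell, 31 did not pass, median 0.17) and proteins added in mitochondria (7, 2 and 20, median 0.20) also lay close together. By place in the ribosome, 2 of 8 genes of the polypeptide exit tunnel rose and 1 fell, 2 of 6 genes of the central protuberance rose, and in the stalk and its base 1 of 5 rose and 1 fell. No difference between these groups of members was tested, and 20.6% of all genes tested rose and 21.7% fell.

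Mrpl38 stood apart from all other members. It encodes a large-subunit protein of the central protuberance, the ridge at the top of the large subunit, and was added in mitochondria. It had 3016 and 3092 reads with TL1A, against 194 and 190 reads in medium. On the CPM scale this was 280 and 266 with TL1A, against 15.4 and 14.2 in medium. Both TL1A libraries were far above both medium libraries, and replicates were close to each other. The level was 18.4-fold higher with TL1A (log2 fold change 4.20 ± 0.10 (SE), n = 2 each, edgeR adjusted p = 2.59e-07), and its log2 fold change stayed between 3.95 and 4.26 under every alternative setting run.

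Per kb of transcript, Mrpl38 was at 193 CPM per kb with TL1A, the 4th highest of the 69 genes with a length, against 10.5 CPM per kb in medium, the 56th. It was thus among the highest genes of the family with TL1A and among the lower ones in medium. Levels per kb ran across the 69 genes from 0.949 to 364 CPM per kb with TL1A (median 54.5), against 1.2 to 226 in medium (median 46.9). Mrpl33 was the highest in both groups, at 364 CPM per kb with TL1A, against 226 CPM per kb in medium. The genes that flank Mrpl38 showed no such difference. Trim65, which encodes an E3 ubiquitin ligase, had 9.29 and 11 CPM with TL1A, against 7.64 and 10.8 CPM in medium, and the groups overlapped (log2 fold change 0.14, edgeR adjusted p = 0.678, and −0.09 without medium replicate 1). Fbf1, on the other side, had 6.97 and 5.6 CPM with TL1A, against 9.79 and 8.38 CPM in medium (log2 fold change −0.53, edgeR adjusted p = 0.117).

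Mrps6, a small-subunit relative of bacterial S6, had the next largest change. It had 272 and 480 reads with TL1A, against 102 and 64 reads in medium, or 25.3 and 41.3 CPM with TL1A, against 8.11 and 4.79 CPM in medium. The groups did not overlap, but replicates differed more than for most members, with TL1A replicate 2 and medium replicate 1 the higher library of their groups. The level was 5.18-fold higher with TL1A (log2 fold change 2.37 ± 0.32 (SE), n = 2 each, edgeR adjusted p = 0.000897). In GENCODE vM21, Mrps6 overlaps Slc5a3 on the same strand with shared exons. Their RefSeq promoter windows share 286 bases. Slc5a3, the sodium and myo-inositol cotransporter, had 189 and 173 CPM with TL1A, against 23.3 and 30.1 CPM in medium (log2 fold change 2.76 ± 0.14 (SE), n = 2 each, edgeR adjusted p = 6.21e-06). Slc5a3 reads were 7.5 and 4.19 times those of Mrps6 with TL1A, against 2.87 and 6.28 times in medium. The replicates with the higher Mrps6 level were therefore not those with the higher Slc5a3 level. Reads in exons that both genes use could not be assigned to either, so the Mrps6 counts rest on the remaining part of its transcript.

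Mrpl45, the third gene to rise by more than 2-fold, encodes the large-subunit protein that, in the human and pig structures, sits at the exit tunnel and anchors the ribosome to the inner membrane. Its CPM values were 364 and 343 with TL1A, against 161 and 178 in medium. Both TL1A libraries exceeded both medium libraries by far more than replicates differed. The level was 2.09-fold higher with TL1A (log2 fold change 1.06 ± 0.08 (SE), n = 2 each, edgeR adjusted p = 5.54e-05). Its neighbour Npepps, a cytosolic aminopeptidase, had 161 and 143 CPM with TL1A, against 125 and 121 CPM in medium (log2 fold change 0.31, edgeR adjusted p = 0.0347). That call was lost without TL1A replicate 1 (adjusted p = 0.237), medium replicate 1 (0.0532) or medium replicate 2 (0.0648). The other neighbour, Gpr179, had 13 and 10 reads with TL1A, against 4 and 0 reads in medium, and was not tested. These 3 genes are the members that rose by at least 2-fold, where 8.77% of all genes tested did, and no member fell by at least 2-fold, where 10.6% of all genes did (edgeR, adjusted p under 0.05).

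**Figure D2:**
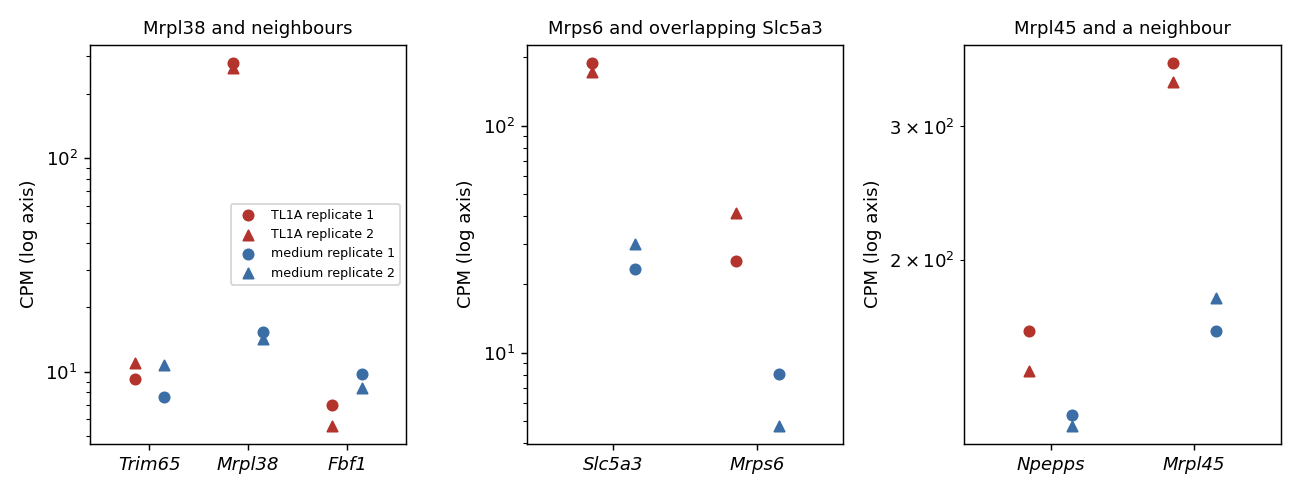
TMM-scaled CPM on log axes in each library, with TL1A left of medium, for the 3 genes that rose by more than 2-fold and for neighbouring or overlapping genes. Mrpl38 is at 280 and 266 CPM with TL1A, against 15.4 and 14.2 CPM in medium, whereas Trim65 and Fbf1 beside it are below 12 CPM in every library, and Slc5a3 is higher with TL1A together with Mrps6.

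Among large-subunit relatives of bacterial proteins, Mrpl14, Mrpl33, Mrpl17 and Mrpl20 rose by less than 2-fold. Mrpl14, which lies at the face toward the small subunit, had 134 and 119 CPM with TL1A, against 75.2 and 80.1 CPM in medium (log2 fold change 0.71 ± 0.10 (SE), n = 2 each, edgeR adjusted p = 0.00132). Exons of Mrpl14 overlap those of Tmem63b on the opposite strand. Tmem63b, a membrane ion channel gene, had 61.9 and 67.7 CPM with TL1A, against 14.4 and 11.1 CPM in medium (log2 fold change 2.35 ± 0.17 (SE), n = 2 each, edgeR adjusted p = 3.51e-05). The strand setting of the counting is not given in the sources used here, so reads of the shared stretch may not be told apart. Mrpl33, whose bacterial relative lies near the tRNA exit site, had 176 and 171 CPM with TL1A, against 101 and 115 CPM in medium (0.68 ± 0.09, edgeR adjusted p = 0.000974). Mrpl17, at the exit tunnel, had 183 and 176 CPM with TL1A, against 116 and 119 CPM in medium (0.61 ± 0.08, edgeR adjusted p = 0.000856). Mrpl20, which in bacteria binds ribosomal RNA early in assembly, had 157 and 152 CPM with TL1A, against 114 and 114 CPM in medium (0.44 ± 0.08, edgeR adjusted p = 0.00461). In each of these genes, replicates lay close together and every TL1A library was above every medium library. The groups were apart in all 21 members that passed, so this adds nothing to a call. They overlapped in 23 of the 51 members that did not pass, a count not made for all genes. The call of Mrpl20 was lost with library totals alone (adjusted p = 0.106).

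Mrpl50, a large-subunit protein added in mitochondria, had 162 and 137 CPM with TL1A, against 99.8 and 98.2 CPM in medium (log2 fold change 0.59 ± 0.11 (SE), n = 2 each, edgeR adjusted p = 0.00343). In the small subunit, Mrps28 had 71.6 and 75.0 CPM with TL1A, against 43.5 and 45.8 CPM in medium (0.72 ± 0.11, edgeR adjusted p = 0.00177). Mrps18b, a mammalian relative of bacterial S18, was counted above among proteins added in mitochondria. Mrps18b had 49.7 and 45.3 CPM with TL1A, against 33.2 and 28.8 CPM in medium (0.62 ± 0.14, edgeR adjusted p = 0.00993). The groups of all 3 were apart, as in every member that passed. Mrps18b lost its call with library totals alone (adjusted p = 0.0661). The 8 genes whose call was kept in all 13 alternative settings were Mrpl38, Mrps6, Mrpl45, Mrps28, Mrpl14, Mrpl33, Mrpl17 and Mrpl50.

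The remaining 7 genes that rose, Mrpl32, Mrpl51, Mrpl21, Mrpl53 and Mrpl40 of the large and Mrps16 and Mrps17 of the small subunit, had log2 fold changes of 0.28 to 0.41. They are named here to complete the count. Mrpl32, whose maturation by the m-AAA protease is known from yeast and mouse, had 128 and 134 CPM with TL1A, against 93.4 and 104 CPM in medium (0.41 ± 0.10, edgeR adjusted p = 0.0121, and 0.0618 without TL1A replicate 2). Mrpl40, of the central protuberance, had 104 and 105 CPM with TL1A, against 86.2 and 85.3 CPM in medium (0.28 ± 0.09, edgeR adjusted p = 0.0433). Replicates of Mrpl40 nearly coincided, but its call was lost when any library was left out, with adjusted p of 0.0825 to 0.165 and a log2 fold change that stayed at 0.28 to 0.30. Mrpl21 (adjusted p = 0.0479 with all libraries, 0.0539 to 0.232 with a library left out) and Mrps16 (0.0487, and 0.078 to 0.198) also lost their calls each time, at log2 fold changes of 0.31 to 0.47 and 0.30 to 0.37. Mrpl51 (0.0272), Mrps17 (0.0363) and Mrpl53 (0.0394) lost their calls without TL1A replicate 1 (0.12, 0.129 and 0.191), without TL1A replicate 2 (0.0725, 0.0878 and 0.0861) and without medium replicate 1 (0.114, 0.146 and 0.138), in that order of genes. For Mrps17 the log2 fold change was 0.20 without medium replicate 1, against 0.31 with all libraries.

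Of the 4 genes that fell, 3 belong to the large subunit. Mrpl24, beside the exit tunnel, had 91.9 and 91.9 CPM with TL1A, against 115 and 117 CPM in medium (log2 fold change −0.34 ± 0.09 (SE), n = 2 each, edgeR adjusted p = 0.0187). Mrpl10, which forms the base of the stalk that recruits translation factors, had 119 and 118 CPM with TL1A, against 153 and 135 CPM in medium (−0.28 ± 0.09, edgeR adjusted p = 0.0461). Mrpl57, added in mitochondria, had 14.3 and 16.5 CPM with TL1A, against 23.2 and 21.6 CPM in medium (−0.54 ± 0.16, edgeR adjusted p = 0.0334). In the small subunit, Mrps31, also added in mitochondria, had 48.7 and 41.7 CPM with TL1A, against 57.0 and 65.5 CPM in medium (−0.44 ± 0.14, edgeR adjusted p = 0.0356). The groups were apart for all 4, as in every member that passed, but each call was lost on leaving out some library. For Mrpl57 this was any of them (adjusted p = 0.0576 to 0.162). Mrpl24 lost its call without TL1A replicate 1 (0.102), TL1A replicate 2 (0.101) or medium replicate 2 (0.0758), at log2 fold changes of −0.36 to −0.30 over the fits with a library left out. Mrpl10 lost it without TL1A replicate 1 (0.161), TL1A replicate 2 (0.177) or medium replicate 1 (0.176), and Mrps31 without TL1A replicate 2 (0.202) or medium replicate 2 (0.173). Exons of Mrpl24 overlap those of Rrnad1 on the opposite strand, which had 616 and 617 reads with TL1A, against 758 and 889 reads in medium.

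**Figure D3:**
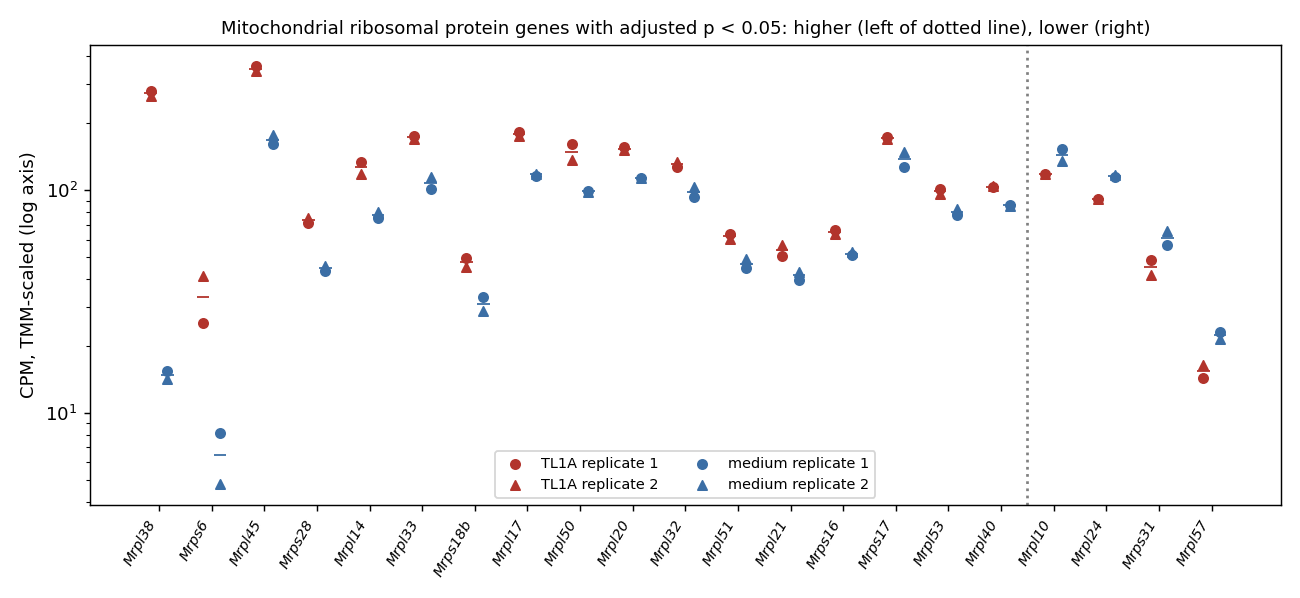
TMM-scaled CPM on a log axis in each of the 4 libraries, with TL1A left of medium, for the 17 genes that rose (left of the dotted line) and the 4 that fell; short lines are group means, and with library totals alone the counts turn to 8 and 15. The gap between groups is widest for Mrpl38 and Mrps6, and it is narrower for the genes near the dotted line.

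Among genes that did not pass, the 4 with the highest mean read count were Mrps14, Mrpl4, Mrpl18 and Mrpl28. Mrps14, of the head of the small subunit, had 311 and 280 CPM with TL1A, against 279 and 312 CPM in medium. The libraries crossed, and the log2 fold change was 0.00084 (edgeR adjusted p = 0.996). With library totals alone it was −0.26 (adjusted p = 0.0413). Mrpl4, whose bacterial relative lines the exit tunnel, had 170 and 187 CPM with TL1A, against 162 and 140 CPM in medium (0.24, edgeR adjusted p = 0.0939, and 0.0354 without medium replicate 1). Mrpl18, of the central protuberance, had 170 and 158 CPM with TL1A, against 147 and 163 CPM in medium (0.09, edgeR adjusted p = 0.48). Mrpl28 had 164 and 166 CPM with TL1A, against 143 and 162 CPM in medium (0.11, edgeR adjusted p = 0.373). A p above the threshold does not show that these levels were equal.

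Mrpl46 and Mrps11 are transcribed head to head and their promoter windows share 141 bases. Mrpl46 had 117 and 123 CPM with TL1A, against 101 and 103 CPM in medium (edgeR adjusted p = 0.0697), and Mrps11 had 58.2 and 57.0 CPM with TL1A, against 47.7 and 52.3 CPM in medium (edgeR adjusted p = 0.201). In both genes the TL1A libraries were above the medium libraries, without passing the test. Exons of 33 members overlap those of another gene in GENCODE vM21, 28 of them on the opposite strand, and 9 of the 21 genes that passed are among the 33. Unequal change of transcript rows within a gene could be tested for 1 member, Mrpl1. Its main row had 271 and 283 reads with TL1A, against 421 and 424 reads in medium, and the other row had 13 and 14 reads with TL1A, against 19 and 11 in medium (edgeR diffSpliceDGE adjusted p = 0.621). Of all 268 genes so tested, 4.48% passed.

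Differences between replicates ran in a shared direction for part of the genes. Among the 63 mitoribosome genes with a mean of at least 10 CPM, the difference of TL1A replicate 2 from replicate 1, on the log2 (CPM + 0.5) scale, ran against that of medium replicate 2 from replicate 1 (Pearson r = −0.76, Spearman rho = −0.36, across genes that share the same libraries). Over all 6445 genes at that level the values were −0.38 and −0.27. In 5 mitoribosome genes (7.94%, against 4.75% of all genes) both TL1A replicate 2 and medium replicate 1 were the higher library by more than 0.3 on that scale. No mitoribosome gene showed any of the other 3 combinations, which were also rare over all genes (0.915%, 0.295% and 0.791%). The 5 were Mrps6, Mrpl12, Mrpl37, Mrpl43 and Mrpl58, of which all but Mrps6 are named here after their values were seen.

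The clearest case was Mrpl12, the stalk protein that recruits translation factors. It had 29.8 and 51.1 CPM with TL1A, against 48.5 and 23.4 CPM in medium. The groups overlapped, and the log2 fold change was 0.17 (edgeR adjusted p = 0.731). Mrpl58, a peptidyl-tRNA hydrolase built into the large subunit, had 75.1 and 95.5 CPM with TL1A, against 120 and 84.5 CPM in medium. Its log2 fold change of −0.26 (edgeR adjusted p = 0.301) did not pass with all libraries, and it passed without medium replicate 2 (−0.46, adjusted p = 0.0494). Mrpl37 had 55.9 and 72.1 CPM with TL1A, against 83.0 and 53.0 CPM in medium, and Mrpl43 had 57.6 and 74.7 CPM with TL1A, against 74.1 and 57.1 CPM in medium. For all 4, a comparison of TL1A with medium within 1 replicate number gives opposite directions for the different numbers. Slc25a10, the mitochondrial dicarboxylate carrier gene beside Mrpl12, had 72.7 and 102 CPM with TL1A, against 44.2 and 26.8 CPM in medium, so that replicates differed in the same sense (log2 fold change 1.30 ± 0.25 (SE), n = 2 each, edgeR adjusted p = 0.00504). The TL1A replicate difference minus the medium replicate difference correlated with transcript GC content across 60 mitoribosome genes (r = 0.37, rho = 0.39), against 0.11 and 0.05 across 6016 genes that share the same libraries. The part of GC content in these values was not tested.

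**Figure D4:**
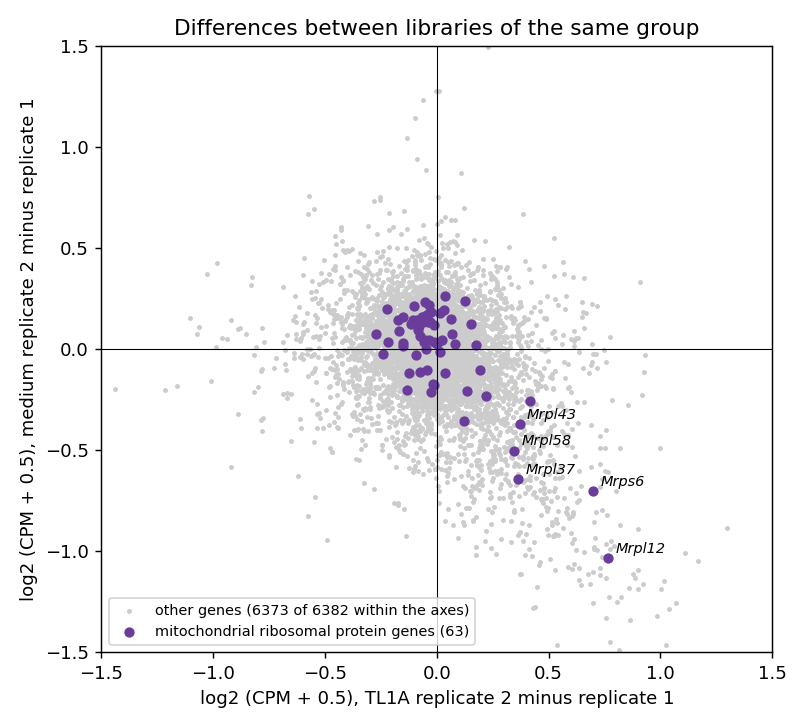
Difference between the libraries of each group, replicate 2 minus replicate 1 on the log2 (CPM + 0.5) scale, for TL1A (horizontal) and medium (vertical); purple points are 63 mitoribosome genes and grey points other genes. The 5 labelled genes lie in the lower right, where TL1A replicate 2 and medium replicate 1 are the higher libraries.

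Genes that act with the mitoribosome did not share one direction. Of 6 mitoribosome proteins with other names, Chchd1 passed, at 128 and 125 CPM with TL1A, against 91.0 and 110 CPM in medium (log2 fold change 0.33, edgeR adjusted p = 0.0455). Its call was lost without TL1A replicate 1 (0.144), TL1A replicate 2 (0.0949) or medium replicate 1 (0.187). The log2 fold change of Chchd1 was 0.20 without medium replicate 1 and 0.50 without medium replicate 2. Dap3, a GTP-binding small-subunit protein, had 4 and 5.34 CPM with TL1A, against 6.84 and 7.71 CPM in medium (−0.64, edgeR adjusted p = 0.0953), and Ptcd3 averaged 155 CPM with TL1A, against 169 CPM in medium (−0.12, edgeR adjusted p = 0.255). The median of the 6 was 0.05, and 1 of them rose and 0 fell, where 20.6% of all genes rose and 21.7% fell.

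Of 22 tested genes for ribosome assembly and ribosomal RNA modification, 0 rose and 5 fell, with a median log2 fold change of −0.08, where 20.6% of all genes rose and 21.7% fell. Nsun4, an RNA methyltransferase needed to join the subunits, averaged 79.0 CPM with TL1A, against 114 CPM in medium (−0.53 ± 0.09 (SE), n = 2 each, edgeR adjusted p = 0.00328). Mettl15, which methylates the small ribosomal RNA, averaged 16 CPM with TL1A, against 32.2 CPM in medium (−1.0 ± 0.18, edgeR adjusted p = 0.00347). Mrm1, a methyltransferase of the large ribosomal RNA, averaged 22.5 CPM with TL1A, against 40.8 CPM in medium (−0.86 ± 0.23, edgeR adjusted p = 0.0193), a call lost without TL1A replicate 2 (0.0691) or medium replicate 2 (0.0738). The other genes that fell were Mettl17 (−0.46) and Ddx28 (−0.68). The 5 of 22 lie near the share of all genes that fell, and no difference between this list and the mitoribosome genes was tested.

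Among 11 tested translation factors 2 rose and 2 fell (median 0.03), where 20.6% of all genes rose and 21.7% fell. Slirp, which stabilises mitochondrial messenger RNA, averaged 42.0 CPM with TL1A, against 28.4 CPM in medium (0.56 ± 0.14 (SE), n = 2 each, edgeR adjusted p = 0.0131, and 0.0744 without TL1A replicate 1), and Gfm1, an elongation factor, also rose (0.34, edgeR adjusted p = 0.0466). Oxa1l, which inserts new proteins into the inner membrane, averaged 72.9 CPM with TL1A, against 99.4 CPM in medium (−0.45 ± 0.11, edgeR adjusted p = 0.014, and 0.106 without TL1A replicate 1). Guf1, a relative of the bacterial GTPase LepA, averaged 15 CPM with TL1A, against 22 CPM in medium (−0.55 ± 0.16, edgeR adjusted p = 0.0282), and its call was lost when any library was left out (0.0586 to 0.135). Of 19 tested genes for mitochondrial tRNA charging, 0 fell, beside 21.7% of all genes, and 1 rose, beside 20.6% (median 0.00). This was Wars2, the tryptophan tRNA ligase, at 44.1 CPM with TL1A, against 30.8 CPM in medium (0.52 ± 0.14, edgeR adjusted p = 0.0216, and 0.133 without TL1A replicate 1 or 0.0617 without medium replicate 1). Fars2, the phenylalanine ligase, averaged 27.6 CPM with TL1A, against 34.3 CPM in medium (−0.31, edgeR adjusted p = 0.113). Mtfmt, which formylates the initiator tRNA, had 15.3 and 22.3 CPM with TL1A, against 41.3 and 19.1 CPM in medium (−0.68, edgeR adjusted p = 0.167, and 0.00666 without medium replicate 2).

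Among 16 tested genes for mitochondrial DNA transcription and RNA processing 1 rose and 5 fell (median −0.13), where 20.6% of all genes rose and 21.7% fell. Polg, the catalytic subunit of the mitochondrial DNA polymerase, had 13.5 and 14.1 CPM with TL1A, against 39.9 and 33.4 CPM in medium. Both TL1A libraries were below both medium libraries (−1.41 ± 0.16 (SE), n = 2 each, edgeR adjusted p = 0.000399). Hsd17b10, a subunit of mitochondrial RNase P, averaged 190 CPM with TL1A, against 265 CPM in medium (−0.48 ± 0.08, edgeR adjusted p = 0.00269), and Supv3l1, an RNA helicase, averaged 17.5 CPM with TL1A, against 10.3 CPM in medium (0.77 ± 0.17, edgeR adjusted p = 0.00998). Trmt10c, Twnk and Prorp also fell, with log2 fold changes of −0.53, −0.37 and −0.55.

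Of 12 regulators of mitochondrial biogenesis, 8 were tested, 2 rose and 2 fell (median 0.33), where 20.6% of all genes rose and 21.7% fell. Pprc1, a coactivator of the PGC-1 family, had 91.2 and 96.8 CPM with TL1A, against 43.0 and 50.1 CPM in medium (1.01 ± 0.12 (SE), n = 2 each, edgeR adjusted p = 0.000453). Ppargc1b, another coactivator of that family, had 15 and 18 reads with TL1A, against 82 and 81 reads in medium (−2.09 ± 0.32, edgeR adjusted p = 0.00157). The libraries of both genes were apart, in opposite directions. Yy1 averaged 74.4 CPM with TL1A, against 54.3 CPM in medium (0.45 ± 0.14, edgeR adjusted p = 0.0347), a call lost without TL1A replicate 1 (0.202) or medium replicate 1 (0.129), and Esrra, a nuclear receptor partner of these coactivators, fell (−0.94, edgeR adjusted p = 0.0472). Gabpa, the DNA-binding subunit of GABP, averaged 85.5 CPM with TL1A, against 74.4 CPM in medium (0.20, edgeR adjusted p = 0.239). Nrf1 had 5 and 6 reads with TL1A, against 14 and 1 reads in medium, and was not tested. Myc and Ppargc1a, which have several transcript rows each, are listed at 0 reads in every library.

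**Figure D5:**
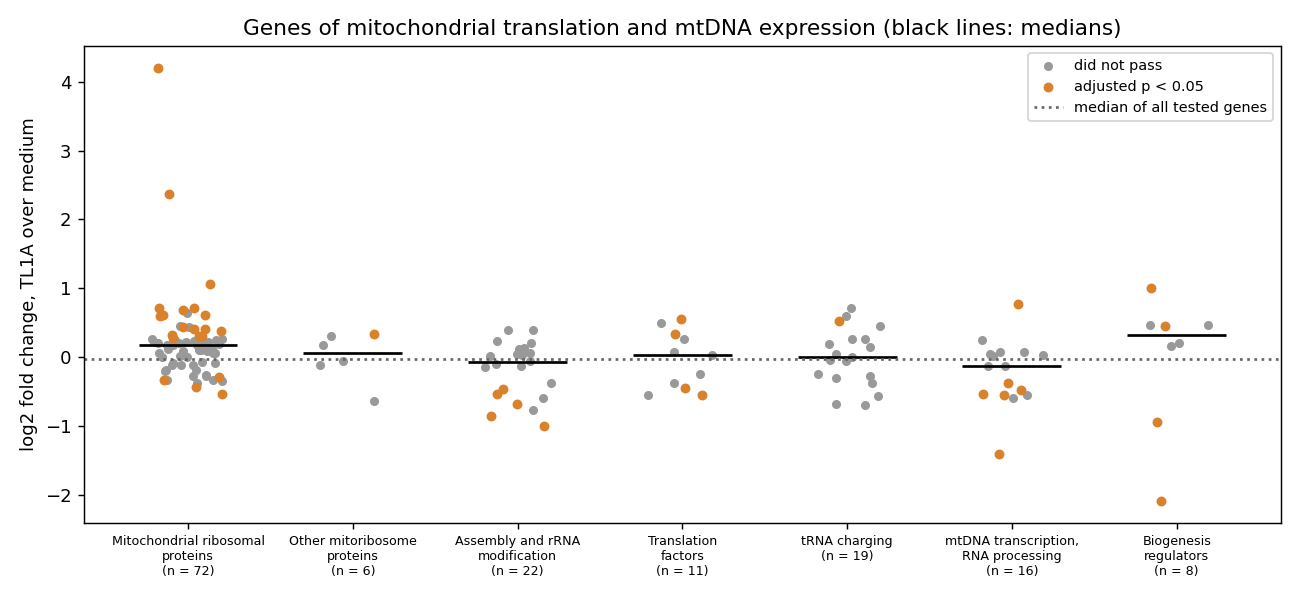
Log2 fold change, TL1A over medium, of each tested gene in the mitoribosome family (72 genes) and in 6 lists of genes that act with it; orange points passed the test, black lines are medians and the dotted line is the median of all tested genes. The family's median is 0.17, while that of the assembly and RNA modification list is −0.08, with 5 orange points all below 0; with library totals alone the family's median is −0.08.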

How the data were processed

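RNA-seq read counts from 4 ILC3 libraries (2 with TL1A, 2 in medium) were used. The SMARTer Ultra Low Input RNA Kit served for cDNA synthesis, per the labels' protocols. Per the submitters' processing notes, CASAVA, STAR and HTSeq were used with genome build mm9; their versions, the annotation release and the strand setting were not given in the sources used here. Raw counts per RefSeq transcript were deposited by the authors, in whole numbers, so a read shared by several transcripts of a gene was left ambiguous. The table held 33535 transcript rows. The 5 HTSeq summary rows name no gene, held 69.9% to 71.3% of a column and were left out, and ambiguous reads made up 33.7% to 34% of the sum of assigned and ambiguous ones.

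Of the rows, 33154 matched a gene symbol and were summed to genes, and 381 kept their own identifier. Genes were filtered with filterByExpr (minimum count 10), scaled by TMM and tested with edgeR 4.0.16 (quasi-likelihood, group only, two-sided, R 4.3.3), with Benjamini-Hochberg adjustment over 9852 genes and a threshold of 0.05. The common coefficient of biological variation was 0.12. A standard error is the size of the log2 fold change divided by the square root of F. The script was tested on simulated data. Alternatives, 11 planned and 2 added after seeing the data (library totals alone and a crossed replicate block), used DESeq2 1.42.0, limma 3.58.1 and other settings of edgeR. With 2 libraries a group, the smallest p of an exact permutation test is 0.333, and none was run.

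Members named in full were the 10 largest increases and up to 10 largest decreases that passed, and the 4 with the highest counts that did not; other lists name up to 3 genes with the smallest p. Members, lists and tests were chosen with earlier results of these data known. Lengths and overlaps come from GENCODE vM21 and promoters from RefSeq GRCm38.p6. The titles share replicate numbers, but nothing says what a number marks.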

Additional observations from a re-analysis of the deposited data

How the results depend on the processing

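The number of mitoribosome genes that rose (17) or fell (4) changed with the scaling and with the libraries used. Upper quartile factors gave 11 higher and 7 lower, library totals alone 8 and 15, and DESeq2 14 and 1. The calls over all genes moved too, from 2027 higher and 2141 lower in the main fit. They were 1819 and 2378 with upper quartile factors, 1311 and 3472 with library totals alone, and 1929 and 1740 with DESeq2. Leaving out 1 library, which leaves a group of 1 that is assumed to vary like the other group, gave 10 to 15 higher and 0 to 3 lower, the 0 coming from edgeR without TL1A replicate 2. RLE factors (17 and 3), limma-voom (17 and 4), no low-count filter (14 and 3) and genes with a single row (15 and 4) stayed near the main counts. Over all genes these gave 2106 and 2044, 2046 and 2100, 2158 and 2285, and 1842 and 1925, in that order. A replicate block on the shared numbers gave 11 higher and 0 lower in edgeR, beside 1736 and 1806 over all genes. Without the block, 29 mitoribosome genes had an unadjusted p under 0.05, a count not made for all genes. Crossed pairing was added after seeing the data because same-numbered libraries deviated in opposite senses. It gave 20 and 8, beside 2295 and 2439 over all genes. The shared numbers were not taken as pairs, since nothing says what they mark. The median of the family lay 0.20 above that of all genes with all libraries, a distance that a change of scaling cannot move much, and 0.14 (without medium replicate 1) to 0.22 (without TL1A replicate 1) above it with a library left out.

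Of the values for named genes under the alternatives, 552 kept direction and side of the threshold, 103 lost the threshold, 11 gained it and 21 changed sign. Library totals alone turned Mrps14 (−0.26), Mrpl4 (−0.0155), Mrpl18 (−0.17), Mrpl28 (−0.15), Mrpl12 (−0.0823), Mrpl43 (−0.24) and Trim65 (−0.115). Mrps14 was also below 0 with upper quartile factors (−0.0583), limma-voom (−0.00128) and single-row genes (−0.00747), and without TL1A replicate 1 (−0.0701) or medium replicate 1 (−0.0852). Mrpl43 turned with upper quartile factors (−0.04) and without TL1A replicate 2 (−0.18) or medium replicate 2 (−0.13), and Mrpl12 without TL1A replicate 2 (−0.26) or medium replicate 2 (−0.23). Mrpl37 turned without TL1A replicate 1 (0.0929) or medium replicate 1 (0.27), Mrpl58 without medium replicate 1 (0.00814) and Trim65 without medium replicate 1 (−0.0906). None of these genes had passed the test in the main fit (all libraries, TMM scaling, group only), and for each change the cause was not tested. With 1 library left out, the values ran from −0.0852 to 0.11 for Mrps14, −0.26 to 0.785 for Mrpl12, −0.345 to 0.27 for Mrpl37, −0.18 to 0.207 for Mrpl43, −0.462 to 0.00814 for Mrpl58 and −0.0906 to 0.441 for Trim65. Most called changes below 0.5 on the log2 scale lost their call in some fit with fewer libraries, and the 6 untested genes, all with several transcript rows, could not be assessed from the reads assigned to them.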
